A study of Mus musculus with 6 samples.

Results

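The genes described here are 10 Kruppel-like factors (KLFs) outside the erythroid lineage: Klf2, Klf3, Klf4, Klf5, Klf6, Klf7, Klf9, Klf10, Klf13 and Klf15. They were chosen by name as family members other than the erythroid factor Klf1, and were followed through the 34 probe sets whose annotation names exactly 1 of them. They are 10 of the 18193 genes measured. The study profiled cells sorted from the bone marrow of adult, wild-type, untreated C57BL/6 mice on Affymetrix MOE430_2 arrays. The Ebf2-positive group (3 arrays) was gated as CD45-, TER119-, CD31- and EBF2+, and the Ebf2-negative group (3 arrays) as CD45-, TER119-, CD31- and EBF2-. Each RNA sample came from 1000 or 2000 cells and was amplified. How many mice were used, and by what reagent EBF2 was detected, is left unstated by the labels.

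KLFs are transcription factors that bind GC-rich and CACCC-type DNA through a run of C2H2 zinc fingers at the end of the protein, and differ mainly in the regions that recruit activators or repressors. Klf2, Klf4, Klf5, Klf6 and Klf7 are usually counted as activators with mixed roles, Klf3 as a repressor that binds CtBP proteins, and Klf9, Klf10 and Klf13 as factors that recruit the Sin3 corepressor, while Klf15 is known for its control of glucose and amino acid metabolism. In mesenchymal tissues several of them are known as regulators of fat cell formation and of the smooth muscle cell state, and several are induced within a short time by serum, shear stress, glucocorticoids or tissue injury.

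Signals are log2 of the deposited RMA values, and each difference is Ebf2-positive minus Ebf2-negative with n = 3 arrays a group. A gene was called when its limma p, adjusted by the Benjamini-Hochberg method over every gene, was under 0.05. Ebf2 itself separated the groups, at 8.33 ± 0.41 (SD) against 3.66 ± 0.49 (difference 4.67, adjusted p = 0.000476). The Ebf2-negative cells carried erythroid RNA: 9 of 10 measured erythroid markers were lower in Ebf2-positive cells, led by Rhag (-7.43), Slc4a1 (-6.04), Trim10 (-5.73) and Tal1 (-5.60), while the globin gene Hba-a1 was dim in both groups (2.58 and 2.37), and the summed linear signal of the list was 231 to 470 on Ebf2-positive and 8427 to 10707 on Ebf2-negative arrays. Of 10 fibroblast markers all were higher, led by Dpt (7.53), Col14a1 (7.45), Pi16 (6.03) and Dcn (5.43), with sums of 42015 to 50904 against 1172 to 2253. Of 11 pericyte and smooth muscle markers 9 were higher, led by Acta2 (7.01), Rgs5 (6.60), Kcnj8 (6.56) and Myh11 (5.13), with sums of 21469 to 24500 against 875 to 1672. None of 6 markers of reticular marrow stroma was called by limma or had an unadjusted p under 0.05, with sums of 4128 to 9038 and 3264 to 8976. The brightest were Cxcl12 (difference 0.44) and Kitl (0.37). Of 10 leukocyte markers 3 were lower: Laptm5 (-2.64), Lcp1 (-1.90) and Rac2 (-1.78). Of 10 endothelial markers 2 were higher (Tek and Esam), and of 7 B lineage markers 1 (Ebf1). Of 12 myeloid markers 2 were higher and 3 lower, led by Mcpt8 (-5.89), Ms4a2 (-5.40), Cpa3 (-2.56) and Prtn3 (1.53). Mcpt8 and Ms4a2 averaged 9.28 and 8.77 on the Ebf2-negative arrays, against 3.39 and 3.38 on the Ebf2-positive arrays. Over all genes 10.8% were called higher and 13.6% lower. Ptprc, the gene of the CD45 gate, was at 5.68 ± 1.81 on the Ebf2-positive and 8.33 ± 0.41 on the Ebf2-negative arrays. The part of these cell types in the KLF differences was not tested, and in such bulk RNA fewer cells of a type and less RNA per cell cannot be told apart. The poly-A control transcripts were brighter on the Ebf2-positive arrays (12.16, 12.23 and 12.58) than on the Ebf2-negative arrays (10.31, 8.70 and 10.52), and centring on them shifts each difference by -2.48. With Ebf2-negative replicate 2 left out, the lowest of these, the shift is -1.91. After centring on all 6 arrays 7 fibroblast, 7 pericyte and 1 B lineage marker were still called higher, and no endothelial or myeloid marker was. All differences are therefore relative to the bulk of genes, and the 6 KLF differences whose sign turns with that centring are named below. The deposited values carry no detection calls. Where a group's mean lies at or below the array medians (3.69 to 3.80), the size of a difference is therefore uncertain. This is so for Klf5, Klf12, Heg1, Sap30 and Plau. It is also so for Ebf2 and for the markers Rhag, Trim10, Tal1, Col14a1, Myh11, Mcpt8 and Ms4a2.

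Of the members called higher, the promoters of 4 are shown first: the activators Klf4 and Klf2, the Sin3-binding Klf9 and the metabolic Klf15. They serve as examples of windows that hold a searched motif, and no link between motif and regulation was tested. Each line gives the 250 bases before the transcription start on the gene's strand, from the RefSeq promoter table for GRCm38.p6. Capitals mark CACGTG (an E-box, the site of clock and MYC-type factors) in Klf4 and Klf15, the MEF2 site in Klf2 and GTAAACA (a forkhead site) in Klf9. The windows lie at chr4:55532476-55532725 (minus strand) for Klf4, chr8:72318812-72319061 (plus strand) for Klf2, chr19:23140976-23141225 (plus strand) for Klf9 and chr6:90462326-90462575 (plus strand) for Klf15.
Klf4: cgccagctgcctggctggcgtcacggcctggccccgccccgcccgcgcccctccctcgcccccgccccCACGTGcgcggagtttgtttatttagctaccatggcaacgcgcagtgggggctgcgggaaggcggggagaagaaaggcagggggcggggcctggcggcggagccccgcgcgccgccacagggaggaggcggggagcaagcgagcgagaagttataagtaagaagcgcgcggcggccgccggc
Klf2: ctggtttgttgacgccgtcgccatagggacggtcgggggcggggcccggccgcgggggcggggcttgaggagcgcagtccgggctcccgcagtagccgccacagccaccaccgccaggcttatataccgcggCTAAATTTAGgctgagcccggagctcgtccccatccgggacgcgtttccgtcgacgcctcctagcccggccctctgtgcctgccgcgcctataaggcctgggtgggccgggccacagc
Klf9: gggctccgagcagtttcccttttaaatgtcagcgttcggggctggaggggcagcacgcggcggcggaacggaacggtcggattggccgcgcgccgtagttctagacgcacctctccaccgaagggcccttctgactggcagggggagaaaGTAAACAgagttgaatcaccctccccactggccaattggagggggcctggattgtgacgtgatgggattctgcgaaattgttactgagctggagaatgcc
Klf15: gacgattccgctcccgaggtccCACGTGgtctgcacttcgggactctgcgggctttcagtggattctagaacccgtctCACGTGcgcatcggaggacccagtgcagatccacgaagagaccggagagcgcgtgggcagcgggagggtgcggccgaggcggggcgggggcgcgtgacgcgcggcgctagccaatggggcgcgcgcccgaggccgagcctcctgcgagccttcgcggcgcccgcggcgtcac

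A window was found for 8 of the 10 genes; Klf5 and Klf10 were not matched. These windows were GC-rich, with a median GC content of 71.4% (from 59.2% in Klf7 to 78.4% in Klf3) against 52.4% over all 32851 windows in the table, and a median CpG observed-to-expected ratio of 0.844 against 0.373. Both strands were searched for 13 motifs. GGGCGG, the GC box that SP and KLF proteins themselves bind, was in 7 of the 8 windows (all except Klf9) and in 32.7% of all windows. CCACCC, a site for many KLF proteins, was in Klf2, Klf3, Klf7 and Klf13 and in 28.1% of all windows, so both the called Klf2 and Klf7 and the uncalled Klf3 and Klf13 held it. CACGTG was in Klf4, Klf6 and Klf15, with 2 copies in Klf15 that begin 228 and 172 bases before the start, and in 6.02% of all windows. The MEF2 site was in Klf2 alone among the 8, from 118 to 109 bases before the start, and in 2.92% of all windows. GTAAACA was in Klf9, from 100 to 94 bases before the start, and in 3.17% of all windows. Of the other motifs, CCAAT was in Klf6, Klf9, Klf13 and Klf15 (33.8% of all windows) and TGANTCA, a wider pattern than the AP-1 site, in Klf9 (6.75%). The Klf9 match reads TGAATCA, while the AP-1 site has C or G as its middle base. The CArG box, the NF-kB site, the glucocorticoid response element, TGACGTCA (the cAMP response element), TATAAA (the core promoter box) and CCGGAA (an ETS site) were in none of the 8, and in 1.47%, 1.19%, 0.0304%, 1.55%, 12.4% and 12% of all windows. In Klf13 a CCACCC match and a GGGCGG match overlapped and were counted for both motifs. A match is a description of the letters in the window and was not tested as a binding site.

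Most KLF genes had higher signals in Ebf2-positive cells when set against the bulk of genes. Klf4, Klf2, Klf7, Klf9, Klf6, Klf15 and Klf5 were called higher, by between 1.64 and 4.35 on the log2 scale, and no member was called lower. Klf3, Klf13 and Klf10 were not called, with differences of 0.87, 0.71 and 0.30. The 7 of 10 called higher stand against 10.8% of all genes called higher (24.4% called in either direction), and the groups did not overlap for 9 of the 10, against 43.0% of all genes. These shares take in many dim genes. With the filter on dim genes (log2 of at least 6 on at least 3 arrays), 6 of 9 members were called higher. Of the 7990 genes that passed it, 1571 were called higher and 2440 lower, larger shares than over all genes. The 10.8% set beside the lists below is unfiltered too. The median difference was 2.14 over the 10 genes and 0.07 over all 18193. With poly-A centring the median was -0.34, 1 member (Klf4) was called higher and 3 (Klf3, Klf10 and Klf13) lower. With that centring and Ebf2-negative replicate 2 left out, an alternative chosen after seeing the data, 4 were called higher (Klf4, Klf2, Klf7 and Klf9) and the same 3 lower, and Klf6 (0.28) and Klf15 (0.48) kept their sign. With 1 array left out at a time, 5 to 7 members were called, and only Klf5 and Klf15 lost their calls.

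**Figure D1:**
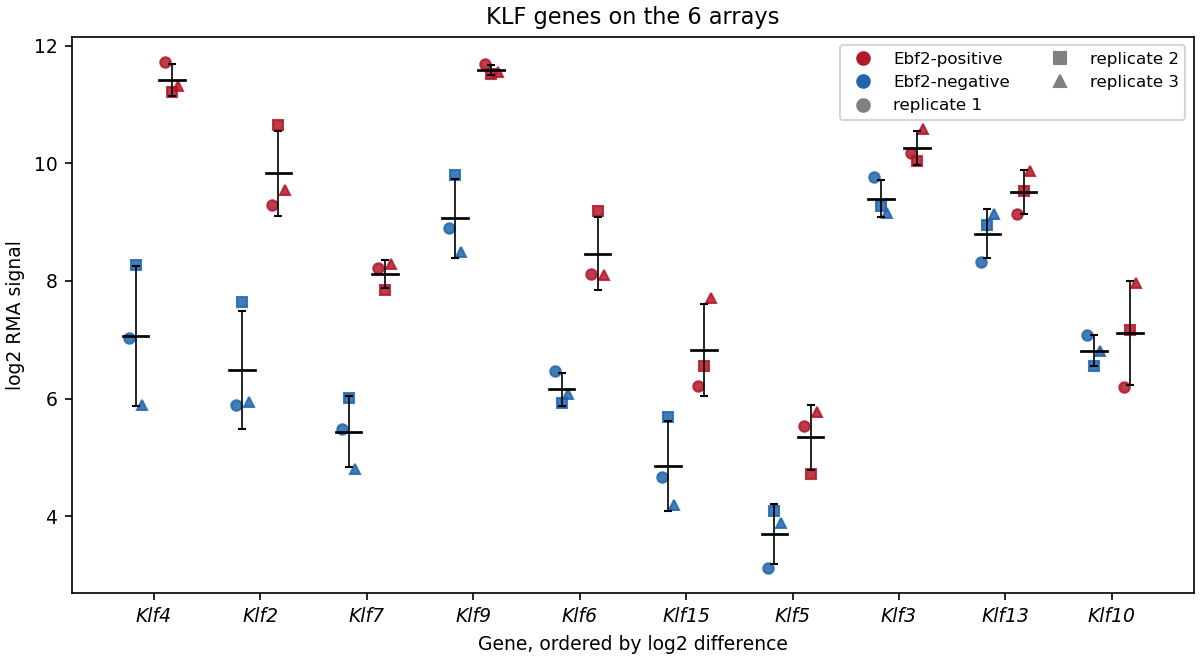
Log2 RMA signal (y axis) of the 10 KLF genes (x axis, ordered by difference) on the 3 Ebf2-positive (red) and 3 Ebf2-negative (blue) arrays; point shapes give the replicate number, and black lines and bars the mean and SD. The red and blue points do not overlap for 9 genes, with the widest gap between means for Klf4 (11.42 against 7.06), while those of Klf10 do; levels are not comparable between genes, and centring on the poly-A controls turns the sign of the Klf3, Klf5, Klf6, Klf10, Klf13 and Klf15 differences.

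Among the activators, Klf4 had the largest difference of the family. Klf4, a growth-arrest factor known for switching the smooth muscle state and for reprogramming, gave 11.72, 11.22 and 11.31 on Ebf2-positive replicates 1 to 3 and 7.04, 8.26 and 5.89 on Ebf2-negative replicates 1 to 3. The lowest Ebf2-positive array thus lay well above the highest Ebf2-negative one, and the spread was on the Ebf2-negative side (SD 1.19 against 0.27). The difference was 4.35 (SE 0.58), or 20.4-fold, with an adjusted p of 0.0033 (limma). It was the one member called higher under all 19 alternative settings, poly-A centring included (1.87, adjusted p = 0.0153). Its second probe set gave 10.17 ± 0.13 against 5.95 ± 0.76, a difference of 4.22.

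Klf2, the flow-responsive factor of endothelium and of lymphocyte quiescence, stood at 9.29, 10.65 and 9.55 on the Ebf2-positive arrays and at 5.89, 7.64 and 5.94 on the Ebf2-negative arrays. Replicate 2 was the highest array in each group, and the groups did not overlap. The difference was 3.34 (SE 0.58), 10.1-fold, with an adjusted p of 0.0085 in the limma fit, and 0.86 with poly-A centring (adjusted p = 0.268; 2.01 and 0.0072 when Ebf2-negative replicate 2 was also left out). The array carries 1 probe set for this gene. Endothelial cells are a known site of Klf2 expression, and their markers were also brightest on replicate 2: the mean log2 signal of the 10 markers was 5.86, 7.12 and 5.95 on the Ebf2-positive and 5.01, 6.07 and 4.81 on the Ebf2-negative arrays. Of these markers Tek (2.51) and Esam (2.48) were called higher, and Pecam1, the gene of the CD31 gate, had group means of 3.57 ± 0.52 and 3.01 ± 0.70, below the array medians, but on replicate 2 of both groups it lay above that array's own median (4.15 over 3.74, and 3.80 over 3.71). Being brightest on replicate 2 of both groups was not particular to endothelial markers. It also held for the fibroblast markers (means of 11.55 and 6.64 on replicate 2 of the Ebf2-positive and Ebf2-negative groups). The same was true of the reticular stroma markers (9.55 and 9.69). The part of endothelial RNA in the Klf2 difference was not tested.

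Klf7, a factor known to restrain fat cell formation and to act in neurons, gave 8.21, 7.84 and 8.29 against 5.49, 6.01 and 4.81. The groups were well separated, by 2.68 (SE 0.34), or 6.39-fold (limma adjusted p = 0.0028), and by 0.20 with poly-A centring (adjusted p = 0.803; 1.06 and 0.0366 when Ebf2-negative replicate 2 was also left out). Klf6, an injury-response factor that is known to activate genes of the TGF-beta system, gave 8.11, 9.18 and 8.10 against 6.47, 5.93 and 6.08. Ebf2-positive replicate 2 stood above its group here too, and the Ebf2-negative arrays lay close together. The Klf6 difference was 2.30 (SE 0.35), or 4.93-fold (limma adjusted p = 0.0053), and turned to -0.18 with poly-A centring.

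Klf5, a growth-promoting factor of smooth muscle and epithelium, was dimmer and less certain. It gave 5.54, 4.72 and 5.77 on the Ebf2-positive and 3.13, 4.09 and 3.88 on the Ebf2-negative arrays, so the nearest arrays of the groups were 4.72 and 4.09. The difference of 1.64 (SE 0.38), or 3.13-fold, was called (limma adjusted p = 0.0224), and was -0.83 with poly-A centring. It was 0.97 on the log2(value + 16) scale, and 0.52 with the call lost (adjusted p = 0.0701) for the mean of its probe sets. Its limma adjusted p rose to 0.0636 or 0.0572 when replicate 1 or 3 of the Ebf2-positive group was left out, and to 0.067 or 0.0642 when replicate 1 or 3 of the Ebf2-negative group was. It rests on 1 of 3 probe sets. The other two had group means below the array medians and differed by -0.37 and 0.30 (adjusted p among probe sets 0.582 and 0.513).

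Klf3, the CtBP-binding repressor that is itself a known target of KLF1 in red cell precursors, had a small difference that fell just short of the threshold. Its signal was 10.17, 10.04 and 10.59 on the Ebf2-positive and 9.76, 9.27 and 9.16 on the Ebf2-negative arrays. The groups did not overlap, and the difference was 0.87 (SE 0.25, 95% interval 0.26 to 1.48, adjusted p = 0.0518 by limma). It passed under 5 of the 19 alternatives, among them a second quantile normalization (1.06, adjusted p = 0.0224) and 75th percentile centring (0.99, adjusted p = 0.0295), and turned to -1.61 with poly-A centring, where it was called lower (adjusted p = 0.0367). None of its 7 probe sets was called, and the other 6 differed by 0.00 to 0.66 in size.

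Of the Sin3-binding factors, Klf9 was called higher and Klf10 and Klf13 were not. Klf9, a repressor induced by glucocorticoid and thyroid hormones, gave 11.69, 11.52 and 11.55 on the Ebf2-positive and 8.90, 9.80 and 8.48 on the Ebf2-negative arrays. The Ebf2-positive arrays agreed closely (SD 0.09), and the spread lay again on the Ebf2-negative side (SD 0.67). The difference was 2.53 (SE 0.35), 5.76-fold, with a limma adjusted p of 0.0037, and 0.05 with poly-A centring (adjusted p = 0.954; 0.99 and 0.0382 when Ebf2-negative replicate 2 was also left out). The mean over its 7 probe sets, dim ones included, gave 1.59 and was called. Klf13, a factor known for switching on the chemokine gene Ccl5 in T cells, gave 9.14, 9.53 and 9.88 against 8.33, 8.95 and 9.13. The nearest arrays of the groups almost touched (9.14 and 9.13), and the difference of 0.71 (SE 0.30, 95% interval -0.02 to 1.44) was not called (limma adjusted p = 0.149). Klf10, named for its early induction by TGF-beta and studied in osteoblasts, was the member whose groups overlapped, at 6.20, 7.17 and 7.96 against 7.09, 6.55 and 6.81. Its difference of 0.30 (SE 0.45, 95% interval -0.79 to 1.38, limma adjusted p = 0.68) was -0.13 without Ebf2-positive replicate 3. With poly-A centring Klf13 was called lower by -1.77 (adjusted p = 0.0218) and Klf10 by -2.18 (adjusted p = 0.0053).

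Klf15, the glucocorticoid-induced factor that is known to activate the glucose transporter gene Slc2a4, gave 6.22, 6.55 and 7.71 on the Ebf2-positive and 4.67, 5.69 and 4.198 on the Ebf2-negative arrays. The groups did not overlap, and replicate 3 was the highest Ebf2-positive and the lowest Ebf2-negative array. The difference was 1.97 (SE 0.52), or 3.93-fold, and was called in the gene fit (limma adjusted p = 0.0365) but not in the fit over all probe sets (adjusted p = 0.0554), and was -0.50 with poly-A centring. It also lost its call without Ebf2-positive replicate 2 or 3 (adjusted p = 0.0597 and 0.071), without Ebf2-negative replicate 1 or 3 (0.116 and 0.121), with the replicate number as a block (0.0675), and on the log2(value + 16) scale (0.0662).

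**Figure D2:**
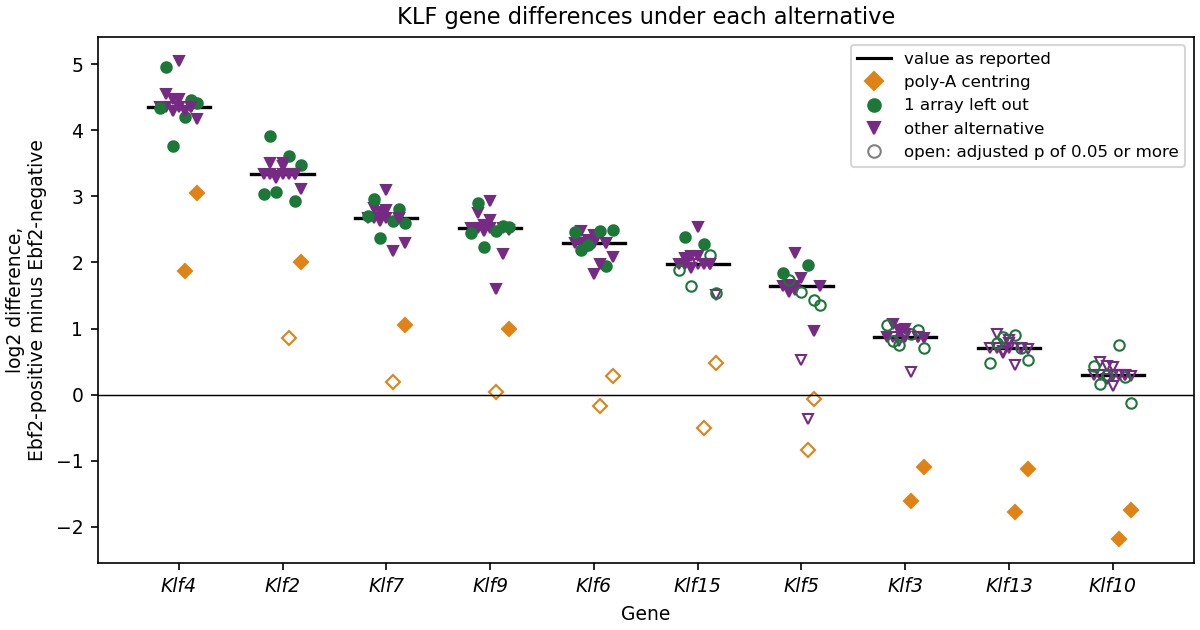
Log2 difference (y axis) of each of the 10 KLF genes (x axis) as reported (black line) and under the 19 alternatives and 1 added after seeing the data (points; open where the adjusted p was 0.05 or more). Centring on the poly-A controls (orange, lower point of each pair) turned the sign for Klf6, Klf15, Klf5, Klf3, Klf13 and Klf10, while Klf4 stayed called higher; with Ebf2-negative replicate 2 also left out (upper orange point) Klf4, Klf2, Klf7 and Klf9 stayed called higher; leaving out 1 array without such centring (green) turned the sign for Klf10 only.

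Seen by probe set, the calls came from 15 of the 34 probe sets, all higher, where 6.39% of all 45037 probe sets were called higher. The groups did not overlap for 19 of the 34 (35.9% of all probe sets), and 8.76% of all probe sets were called lower. The count of 15 fell to 9 when replicate 1 of the Ebf2-negative group was left out and to 7 when its replicate 3 was. Klf9 had 5 of 7 probe sets called, with differences from 1.91 to 2.53, and the other two lay near or below the array medians in both groups (differences 0.29 and 0.06). Klf7 had 3 of 4, from 2.18 to 2.88. Its remaining probe set differed by 0.98 (SE 1.03), with Ebf2-positive replicate 3 at 3.02 and replicates 1 and 2 at 6.12 and 7.18. Klf6 had 3 of 5, from 1.67 to 2.32, and the uncalled pair differed by 1.75 and 1.80 with a wide spread among the Ebf2-positive arrays (SD 1.59 and 1.26). None of the 3 Klf13 probe sets was called (0.71, 0.37 and 0.27).

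**Figure D3:**
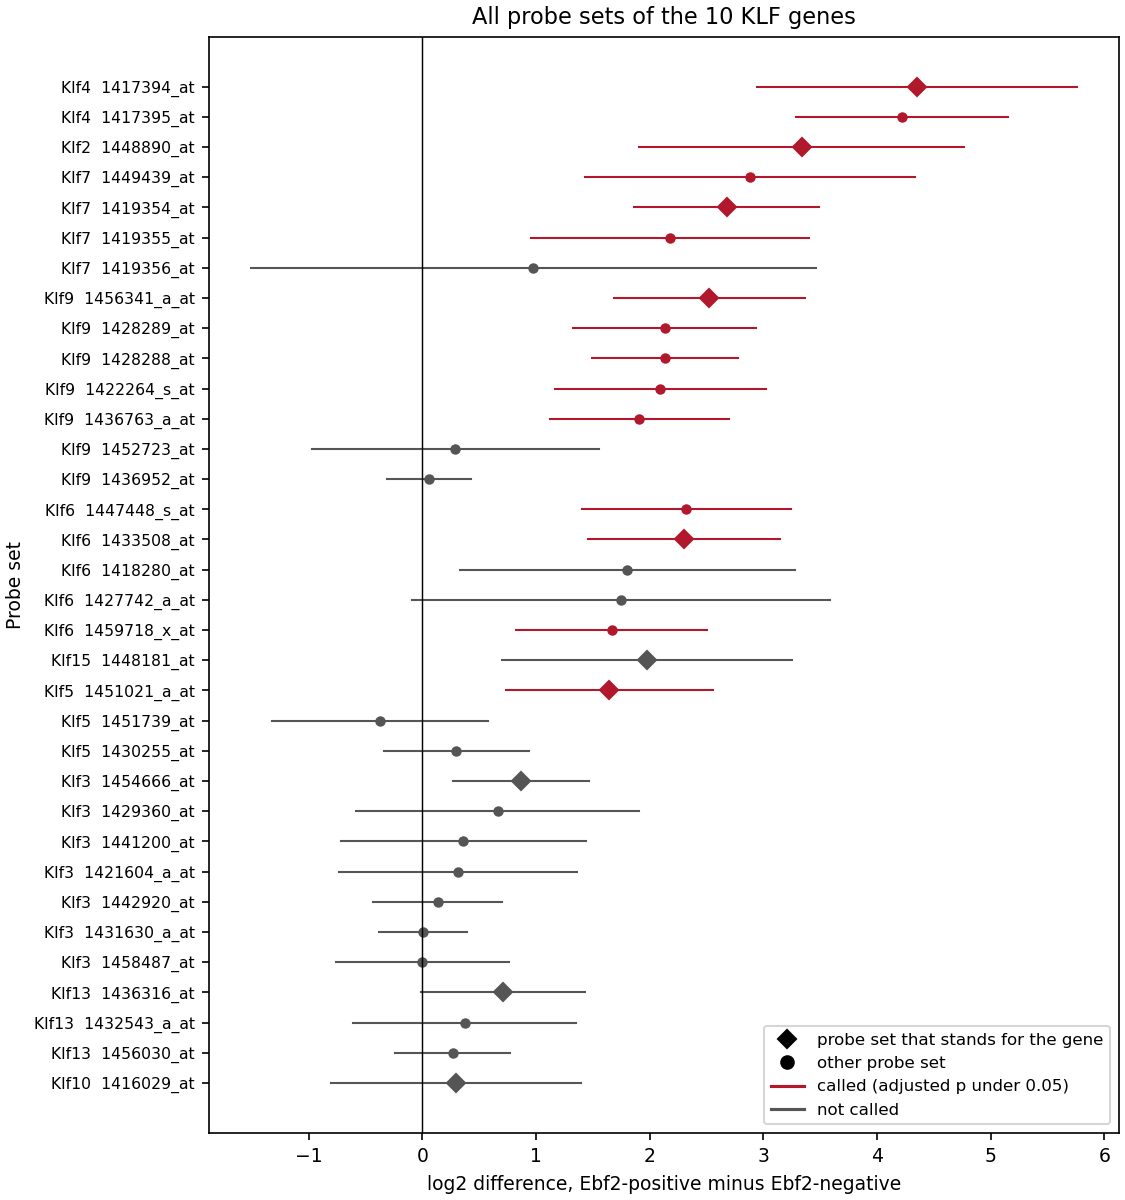
Log2 difference (x axis) with its 95% interval for all 34 probe sets of the 10 KLF genes (y axis, by gene); diamonds mark the probe set that stands for the gene and red the probe sets called in the fit over all probe sets. Klf4, Klf2, Klf7, Klf9 and Klf6 have 14 of the 15 red probe sets, Klf5 has 1, and those of Klf3, Klf13, Klf10 and Klf15 are grey; with poly-A centring all values move down by 2.48, and then 2 probe sets were called higher and 16 lower.

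Most of the called members shared a pattern among the Ebf2-negative arrays. For 6 of the 7 called members (Klf2, Klf4, Klf5, Klf7, Klf9 and Klf15) Ebf2-negative replicate 2 was the highest array of its group, and Klf6 was the exception, lowest there. On that array the fibroblast markers averaged 6.64 on the log2 scale, against 5.91 and 6.13 on replicates 1 and 3. The pericyte markers averaged 5.57 against 4.95 and 5.05, and the reticular stroma markers 9.69 against 8.33 and 8.53. The share of these cell types in the pattern was not tested. In the Ebf2-positive group replicates 1, 2 and 3 were highest for 2, 2 and 3 of the called members. Over all 10 members, Ebf2-negative replicate 2 and Ebf2-positive replicate 3 were each the highest of their group for 6. The share of all genes with such an order was not counted. The actin 3'/5' ratio, a sign of RNA and amplification quality, was lowest on replicate 2 of both groups (14 among the Ebf2-positive and 15.9 among the Ebf2-negative arrays, with the others between 19.5 and 31.4). The poly-A controls were also lowest on Ebf2-negative replicate 2, at 8.70 against 10.31 and 10.52. The part of these quality signs was not tested. The median SD of the called members was 0.671 in the Ebf2-negative group, against 0.243 over all genes. In the Ebf2-positive group it was 0.550 against 0.376, and Klf4, Klf7 and Klf9 lay under the latter.

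Klf7 and Klf9 had the most similar profiles of any pair of members, with a root mean square distance of 0.178 between their mean-centred log2 values over the 6 arrays, and Klf4 and Klf10 the least similar (2.26). Among 16313 other named genes, those nearest to Klf4 were Lamb2, a laminin chain of basement membranes (distance 0.215, difference 4.46), Farp1, an exchange factor for RAC-type GTPases (0.242, 4.2), and Tmem119, a membrane protein of osteoblasts and microglia (0.290, 4.11). The distance takes in the gap between the groups, so differences of similar size to that of Klf4 (4.35) follow from how these genes were picked.

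The rest of the family was not uniform. Klf1, the erythroid member, gave 8.60, 6.55 and 8.17 on the Ebf2-positive and 10.95, 12.02 and 11.89 on the Ebf2-negative arrays, and was called lower by -3.85 (SE 0.58, limma adjusted p = 0.0051). Klf12, a CtBP-binding repressor like Klf3, was called higher by 2.63 (5.39 ± 1.06 against 2.76 ± 0.95, adjusted p = 0.0315 by limma), with an Ebf2-negative mean below the array medians. Klf16 (-1.61, adjusted p = 0.0761), Klf11 (-0.46), Klf14 (0.26) and Klf17 (0.22) were not called, and Klf8 was not analysed here. None of 7 SP factors, the sister family with the same type of zinc fingers, was called by limma, and none had an unadjusted p under 0.05. The brightest were Sp1 (difference 0.11) and Sp3 (-0.18). With poly-A centring 5 of the 6 other KLF genes and all 7 SP factors were called lower.

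Genes known to act upstream of KLFs were in part higher. Of 20 such genes 8 were called higher, where 10.8% of all genes were, and none lower, with a median of 1.06 (-1.41 with poly-A centring, where 9 were called lower and none higher). They were led by Tgfbr2, a TGF-beta receptor (3.60), Heg1, a receptor of the endothelial CCM complex that is known to limit Klf2 and Klf4 (2.51), Foxo1, a forkhead factor (1.92), and Mef2a, one of the MEF2 factors that drive Klf2 (1.80). Nr3c1, the glucocorticoid receptor, was higher by 0.98. Of 18 corepressors, coactivators and ubiquitin ligases of KLF proteins, 2 were higher, the ligases Smurf1 (2.23) and Smurf2 (1.91), and 3 lower: Sap30 (-4.69) and Sin3a (-1.72), both of the Sin3 complex, and the acetyltransferase Ep300 (-1.09). The 27.8% called stand near the 24.4% of all genes called, and the median of these 18 was -0.47 (-2.95 with poly-A centring, where 15 were called lower and none higher). Of the 7990 genes that passed the filter on dim genes, 4011 were called, a larger share than the 27.8% of these 18, which were not filtered.

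Among genes reported as KLF targets, those called were higher except Myh10, while with poly-A centring most of those called were lower. Over all genes 10.8% were called higher and 24.4% in either direction. Of 11 measured targets of KLF2 and KLF4, 4 were higher and none lower, with a median of 0.58 (-1.90 with poly-A centring, with 2 called higher and 6 lower): Acta2 and Tagln, contractile genes that also belong to the smooth muscle markers (7.01 and 4.87), Thbd, the anticoagulant receptor thrombomodulin (3.38), and Cdkn1a, the cell cycle inhibitor p21 (1.82). Acta2 and Tagln are known as genes that KLF4 represses. Of 10 targets of KLF5, KLF6 and KLF10, Col1a1 (3.18), Plau, the urokinase protease (2.54), and Pdgfa, a growth factor (1.88), were higher and Myh10, a nonmuscle myosin, lower (-1.06), with a median of 0.92 (-1.55 with poly-A centring, with none called higher and 5 lower). Of 8 targets of KLF15, Slc2a4 (2.65) and the matricellular Ccn2 (2.28) were higher, a share of 25% near the 24.4% of all genes called, with a median of 0.34 (-2.14 with poly-A centring, with none called higher and 6 lower). The targets in amino acid breakdown, Prodh (0.08), Bcat2 (-0.01) and Tat (0.60), were not called.

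Because Klf9 and Klf15 are glucocorticoid-induced, other genes of that response were counted. Of 13 such genes 5 were higher, where 10.8% of all genes were, and none lower: Sult1a1 (2.63), Cebpd (2.23), Errfi1 (2.19), Sgk1 (1.89) and Dusp1. Dusp1 also belongs to the immediate early list below. The list median was 0.71 (-1.77 with poly-A centring, with none called higher and 7 lower). The other 8 genes of the list were not called, among them Fkbp5 (-0.17), Tsc22d3 (0.37) and Per1 (0.71). The part of glucocorticoid induction in the KLF differences was not tested.

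Several KLFs, among them Klf2, Klf4, Klf6 and Klf10, are known as early response genes that can rise while tissue is taken apart, so a list of such genes was set beside them. Over all genes 10.8% were called higher. Of 18 immediate early genes 14 were higher in Ebf2-positive cells and none lower, with a median of 1.89 (-0.59 with poly-A centring, with none called higher and 2 lower). They were led by Atf3, a stress-induced factor (3.38), Ccn1, a matricellular protein (3.04), Jun, an AP-1 subunit (2.77), and Nr4a1, an orphan receptor (2.64). The summed linear signal of the list was 29401 to 31638 on the Ebf2-positive and 6969 to 9282 on the Ebf2-negative arrays. Ebf2-negative replicate 2, highest in its group for most called KLFs, was also highest for this list, with a mean log2 signal of 7.97 against 7.56 and 7.41. Klf10, also an early response gene, was not called. The part of early gene induction in the KLF differences was not tested.

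**Figure D4:**
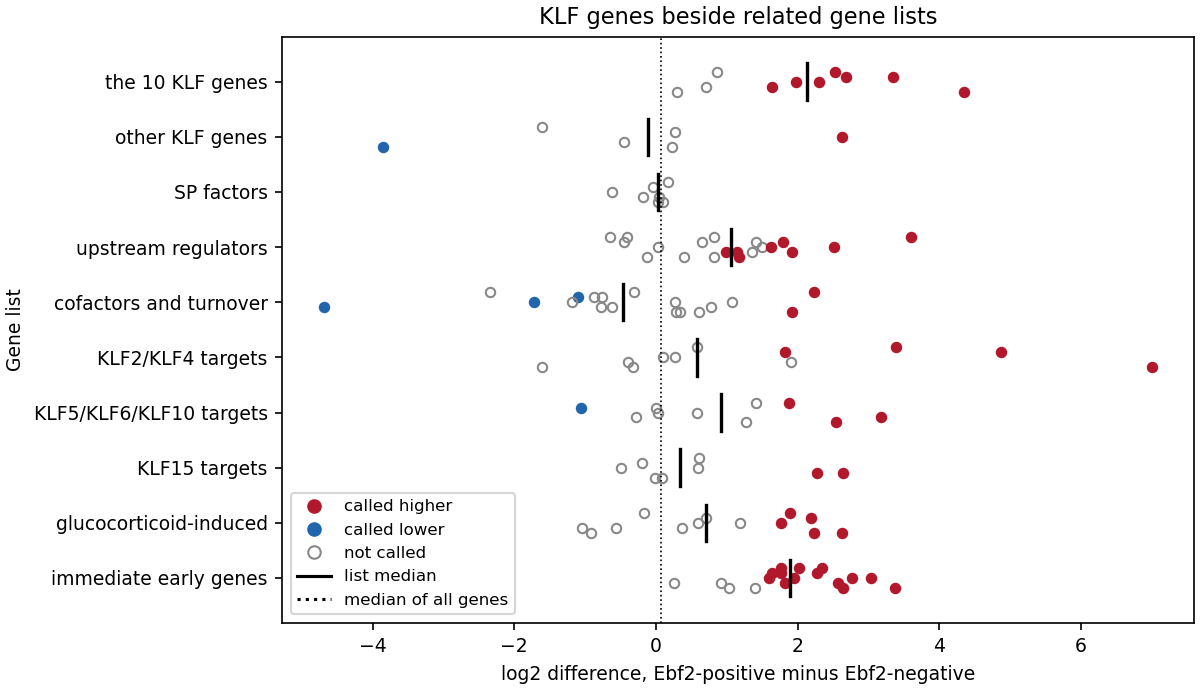
Log2 difference (x axis) of the genes of each list (y axis), with red for called higher, blue for called lower and open grey for not called; black bars are list medians and the dotted line the median of all genes (0.07). The 10 KLF genes (median 2.14) and the immediate early genes (median 1.89) lie mostly to the right, and the SP factors (median 0.02) around the dotted line; poly-A centring moves all points to the left by 2.48 and puts these 3 medians below 0.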

How the data were processed

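RNA of 6 sorted cell samples was measured on Affymetrix MOE430_2 arrays. The deposited values are 1 linear intensity per probe set and array, which the authors made with RMA, per the series' design text and the submitters' processing notes; no software version is stated. RMA as usually run includes quantile normalization between arrays, which can hide changes in total RNA, and amplification from few cells can widen the spread of dim genes. Log2 was taken. The 64 control probe sets were left out of the tests. GEO's platform annotation named 1 gene for 34945 of 45037 probe sets, several for 932 and none for 9160, and RefSeq (GRCm38.p6) changed 0 symbols. Each gene was represented by its probe set with the highest mean. The two-sided test was limma's moderated test (version 3.58.1, run under R 4.3.3), with Benjamini-Hochberg adjustment over 18193 genes or 45037 probe sets, and was checked on simulated data. Nothing in the labels ties replicates to separate mice, so the p-values reflect sample-to-sample spread that may be technical. With 3 arrays a group, precision is limited.

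All 10 members, the other KLF genes and, of each further list, up to 4 called members with the largest differences (or the 2 brightest where none passed) were named; Nr3c1, Ep300, Dusp1, Fkbp5, Tsc22d3, Per1, Prodh, Bcat2, Tat, Pecam1, Ptprc and Hba-a1 were added after their values were seen. Ebf2, by which the cells were sorted, and the genes nearest to Klf4 were named as well. The members and lists were chosen with earlier results of these data known. Alternatives were further normalization, centring, a filter on dim genes, log2(value + 16), other variance models, array weights, a replicate block, other choices of probe sets, and leaving out arrays. Figures used matplotlib 3.10.9 in Python 3.11.15.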

Additional observations from a re-analysis of the deposited data

How the results depend on the processing

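Across the 19 alternatives, poly-A centring changed the most: 4 members were called (1 higher, 3 lower) in place of 7, 15823 genes in place of 4430, and Klf3, Klf5, Klf6, Klf10, Klf13 and Klf15 turned to -1.61, -0.83, -0.18, -2.18, -1.77 and -0.50. The share of called genes that were higher was then 1.43% in place of 44.3%. The poly-A controls averaged 12.32 on the Ebf2-positive and 9.84 on the Ebf2-negative arrays, and the cause was not tested. Ebf2-negative replicate 2 had the lowest poly-A signal (8.70). With it left out as well, chosen after seeing the data, 15471 genes (4.14% of them higher) and 7 members (4 higher, 3 lower) were called, and Klf3, Klf5, Klf10 and Klf13 were at -1.10, -0.069, -1.74 and -1.12, while Klf6 (0.28) and Klf15 (0.48) kept their sign but not their calls. Centring on the 75th percentile shifted the median of all genes by 0.12. Leaving out probe sets ending _x_at, _s_at or _a_at turned Klf5 to -0.37, since another of its probe sets then stood for it. Leaving out 1 array gave 5 to 7 called members, 7 to 16 called member probe sets and 2690 to 4348 called genes, and put Klf10 between -0.13 (without Ebf2-positive replicate 3) and 0.75 (without Ebf2-positive replicate 1). The count of called genes was lowest without Ebf2-negative replicate 3. With the replicate number as a block, 6 members, 13 member probe sets and 4219 genes were called, and Klf15 was the member lost. Deviations from the group means correlated by 0.058, 0.106 and 0.029 between same-numbered arrays, and 5 of the 6 arrays correlated best with their own number, a hint from the data. Since 0.058 and 0.029 are under 0.1, the numbers were not taken as pairs. Klf5 did not pass the filter on dim genes (log2 of at least 6 on at least 3 arrays). Klf2, Klf4, Klf6, Klf7 and Klf9 stayed called higher under each of the 19 alternatives except poly-A centring, which only Klf4 passed. Averaging all probe sets of a gene gave lower values for Klf3 (0.34), Klf5 (0.52), Klf9 (1.59) and Klf13 (0.45). Signals near or below the array medians (3.69 to 3.80) limit what can be said of the dim probe sets of Klf3, Klf5 and Klf9.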
